A study of Mus musculus with 7 samples.

Results

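The cells of the mouse make cholesterol from acetyl-CoA through the mevalonate pathway, take it up with lipoproteins through surface receptors, and move it between membranes with carrier proteins. Levels of 36 genes of this system were read in haematopoietic stem cells (HSCs), the cells of bone marrow that renew all blood lineages. The genes were chosen by symbol. They comprise 18 enzymes of sterol synthesis and 8 genes of control by the SREBP and LXR transcription factors. The others are 7 genes of lipoprotein uptake and remodelling and 3 genes of intracellular sterol transport and storage. All 36 are among the 24015 genes of the count table, and 33 had enough reads to be tested.

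Bulk RNA sequencing compared 3 libraries of old HSCs with 4 libraries of young HSCs, all from bone marrow of C57BL/6 mice and sorted by flow cytometry with the labelled phenotype LSKCD150+CD48- (lineage-negative, Sca-1+ and c-Kit+ cells that carry CD150 and lack CD48). The labels name no other allele or agent. Ages are not stated, and nor is it stated if libraries stand for single animals or for pools, so p-values measure the spread between these libraries, part of which may be technical. In bulk RNA, fewer cells of a type and less RNA per cell cannot be told apart.

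Sterol synthesis is governed by its own product. When membrane cholesterol is low, the escort protein SCAP carries SREBP precursors to the Golgi, where they are cleaved into factors that switch on genes of synthesis and uptake. When it is high, INSIG proteins hold SCAP in the endoplasmic reticulum, while oxysterols activate the LXR receptors, which switch on genes of sterol export, among them Apoe in macrophages. In mice, cholesterol handling by HSCs and progenitors is known to affect how much they proliferate and how many myeloid cells they form.

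The libraries held 27369677 to 32401925 counts in old HSCs and 22203806 to 27146186 in young HSCs. All levels below are CPM (counts scaled to a common library total) after TMM scaling, and a library with no count of a gene allowed up to 0.0929 to 0.137 CPM, the worth of 3 counts (counting error only). Libraries of a group differed widely, with a biological coefficient of variation of 106%, and young 1 and young 2 stood apart from the rest on the first 2 principal components. All 10 HSC markers in the list were detected, with a summed level of 2882 to 3145 CPM in old HSCs and 1304 to 2342 CPM in young HSCs. The 20 cell division genes read beside them summed to 1128 to 2062 CPM in old HSCs and 4265 to 5443 CPM in young HSCs. Their part in the results below was not tested.

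None of the 33 tested genes passed an adjusted p of 0.05 by the quasi-likelihood test of edgeR (Benjamini-Hochberg over 11506 genes). Over all tested genes 0.252% passed, 0.235% higher and 0.0174% lower in old HSCs. At an unadjusted p under 0.05, 2 members were higher in old HSCs (Apoe and Fdft1; 4.62% of all tested genes were) and 3 were lower (Srebf2, Scap and Scarb1; 4.49% of all tested genes were). DESeq2 called Apoe and Fdft1 higher and no member lower at an adjusted p under 0.05, where it called 1.90% of genes higher and 1.91% lower.

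Old libraries lay above every young library for 3 of the 33 genes (Apoe, Fdft1 and Lpl), against 7.55% of all tested genes. They lay below every young library for 2 (Scap and Lrp8), against 5.18%. The fitted log2 fold change was positive for 13 members (48.5% of all tested genes) and negative for 20 (51.5%), with a median of -0.21 beside -0.03 for all tested genes. With 33 members these counts are read as a description, and the account that follows rests on the values of single genes.

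**Figure D1:**
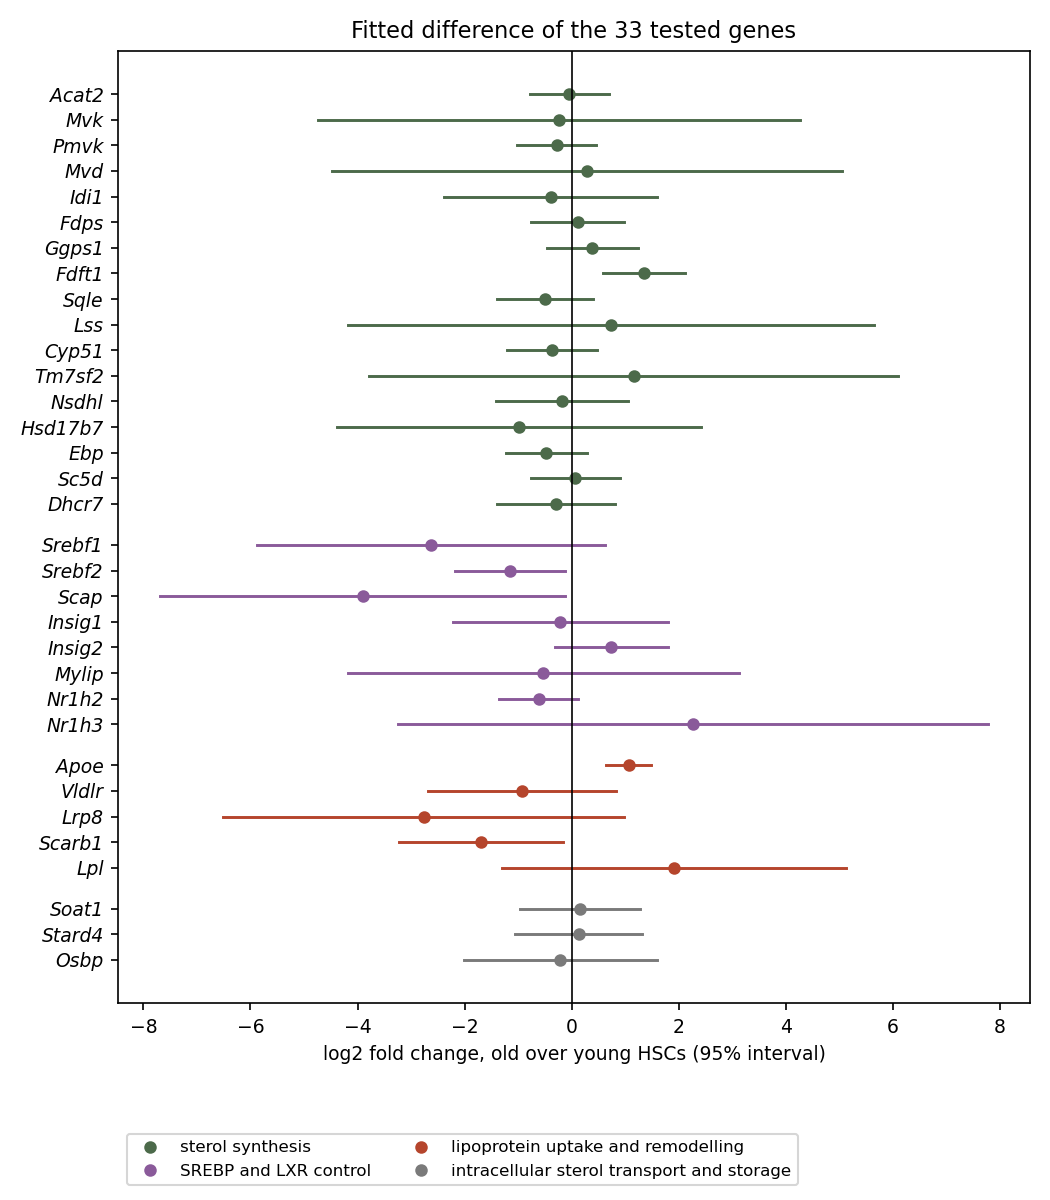
Fitted log2 fold change (old over young HSCs, point) with its 95% interval (line) for the 33 tested genes, coloured by role. The intervals of Apoe and Fdft1 lie above 0, those of Srebf2, Scap and Scarb1 below 0, before adjustment for the 11506 genes tested, and genes that differ strongly between libraries of a group, such as Mvk, Mvd and Lss, have intervals several log2 units wide.

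Apoe, the lipoprotein ligand through which cells export and take up cholesterol, was the member with the smallest p. It stood at 2532, 2342 and 2089.9 CPM in the 3 old libraries, against 1222, 1162, 905 and 1145 CPM in the 4 young libraries. The groups did not overlap, and every old library was well above every young one. Mean levels were 2321 ± 222 CPM (SD, n = 3) in old HSCs and 1109 ± 139.5 CPM (SD, n = 4) in young HSCs, 2.09-fold higher in old, the fitted log2 value being 1.07 ± 0.19 (SE). The adjusted p was 0.0760 by edgeR, so the difference missed the threshold. It passed with DESeq2 (adjusted p = 8.23e-09) and limma-voom (adjusted p = 0.00829; 0.426% of genes were called higher). It also passed when edgeR was fitted only to genes averaging 50 CPM or more (adjusted p = 0.0110, with 1.75% called higher). The edgeR adjusted p of 0.0760 is under a threshold of 0.1 (0.382% called higher), which is the same fit and not a separate test.

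The direction and size of the Apoe difference held without each library in turn. The log2 fold change was 0.98 to 1.14 when each library was left out in turn, with adjusted p of 0.0683 to 0.336, and 1.18 without young 1 and young 2. Macrophages express Apoe at high levels, so their markers were read as well. Of 13 macrophage markers in the table, Emr1, Csf1r, Marco and Timd4 had no count in any library. Spic was read in every library, at 5.21 to 15.8 CPM in old HSCs and 19.4 to 51.3 CPM in young HSCs. C1qb reached 4.46 CPM in old HSCs and 32.7 CPM in young HSCs, and Axl reached 17.5 and 30.1 CPM. The log2 fold change was negative for all 6 tested markers. C1qa, which had no count in any old library, entered the test only through its young libraries. The count of signs is therefore given as a description. The list summed to 14.4 to 41.9 CPM in old HSCs and 63.0 to 124 CPM in young HSCs. Bone marrow stroma and adipocytes also express Apoe. Of their 9 markers, Lepr, Adipoq, Col3a1 and Kitl had no count in any library. Col1a2 reached 8.69 CPM in old 1, and Fabp4 reached 7.36 CPM in young 1. The 9 markers summed to 0 to 8.69 CPM in old HSCs and 0.0361 to 7.45 CPM in young HSCs. The part of either cell type in the Apoe values was not tested.

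The promoter of Apoe is shown because Apoe is the member with the smallest p. The 100 bases before its most upstream annotated start lie at chr7:19699189-19699288 on the minus strand (GRCm38.p6, sequence from RefSeq), and hold neither a CCAAT box nor a GC box as spelled out below, so no capitals are set.
Apoe: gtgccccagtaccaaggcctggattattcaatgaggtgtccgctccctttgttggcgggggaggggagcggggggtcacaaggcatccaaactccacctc

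**Figure D2:**
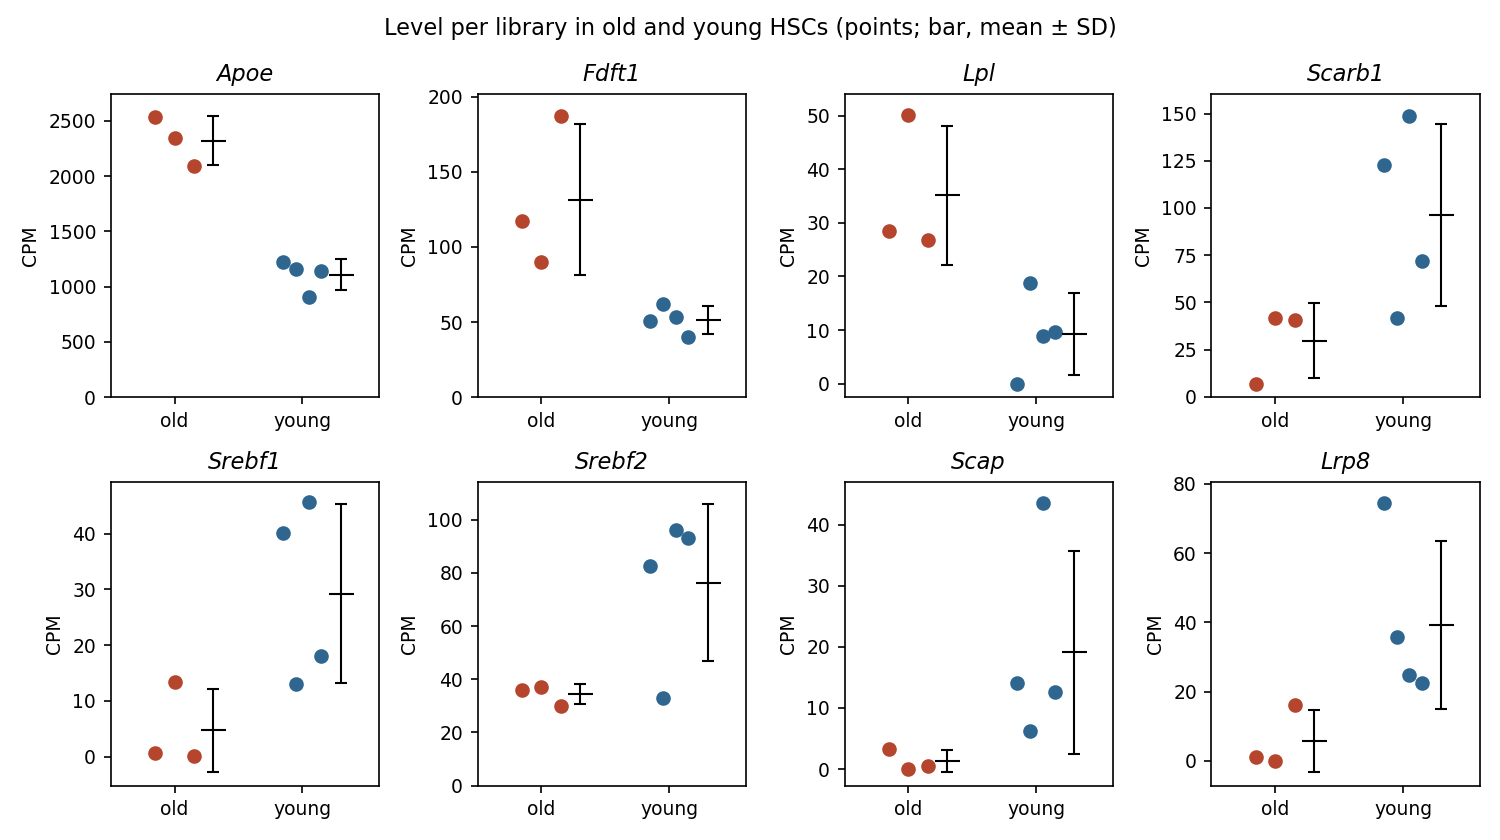
Level (CPM, linear axis) of 8 genes in each library of old (left, n = 3) and young (right, n = 4) HSCs, with the mean and SD as a bar. Old and young libraries separate for Apoe, Fdft1, Lpl, Scap and Lrp8, and for Srebf2 a single young library, young 2, sits at the level of the old ones.

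The 3 tested lipoprotein receptors had the opposite sign to Apoe, and none passed the test. Scarb1 encodes SR-BI, the receptor that takes cholesterol ester from high-density lipoprotein. It stood at 6.87, 41.8 and 40.7 CPM in old HSCs, against 123, 41.7, 149 and 72.0 CPM in young HSCs. The groups met only at old 2 and young 2. The mean was 3.23-fold lower in old HSCs (29.8 ± 19.8 against 96.3 ± 48.4 CPM in young), a log2 fold change of -1.69 ± 0.68 (SE) and an edgeR adjusted p of 0.461.

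Lrp8, the receptor for APOE and reelin also called ApoER2, stood at 1.17, 0 and 16.2 CPM in old HSCs, against 74.6, 35.7, 24.7 and 22.4 CPM in young HSCs. All old libraries were below all young ones. Its log2 fold change was -2.77 ± 1.66 (adjusted p = 0.733) and -6.07 without old 3, the old library with most reads of the gene. Vldlr, the receptor of the same family for very low-density lipoprotein, overlapped between the groups, with 49.2, 17.0 and 19.9 CPM in old HSCs against 76.5, 72.2, 7.62 and 62.3 CPM in young HSCs (fitted log2 fold change -0.93 ± 0.78, adjusted p = 0.884). Young 3 was the lowest of all 7 libraries for Vldlr and the highest for Scarb1.

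Lpl, the lipase that frees fatty acids from lipoprotein triglyceride, was above every young library in all old libraries. It stood at 28.5, 50.1 and 26.7 CPM in old HSCs, against 0, 18.8, 8.81 and 9.61 CPM in young HSCs, a 3.78-fold higher mean (fitted log2 fold change 1.92 ± 1.43, adjusted p = 0.843). The large endocytic receptor Lrp1 had 1 count in young 4 and none elsewhere. Pltp, which transfers phospholipid between lipoproteins, had no count in any library. A part of its exons (19.3% of their length in GENCODE M21) overlaps Ctsa, and how the authors' counting handled this was not tested. Taken as a sum and leaving out Apoe, a split chosen after the values were seen, the 6 remaining genes of this role stood at 85.7, 109 and 104 CPM in old HSCs and at 274, 168, 189.9 and 166 CPM in young HSCs.

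Both SREBP precursor genes and the gene of their escort had lower means in old HSCs. Srebf2, whose product mainly drives cholesterol synthesis and uptake, stood at 35.8, 37.3 and 30.0 CPM in old HSCs, against 82.7, 32.97, 96.3 and 93.3 CPM in young HSCs. All young libraries except young 2 were well above the old ones, and young 2 lay among the old. The mean was 2.22-fold lower in old HSCs (34.4 ± 3.83 against 76.3 ± 29.5 CPM in young), with a log2 fold change of -1.15 ± 0.46 (adjusted p = 0.450) and of -1.46 without young 1 and young 2 (adjusted p = 0.201).

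Srebf1, which in its main liver form drives fatty acid synthesis, stood at 0.604, 13.4 and 0.192 CPM in old HSCs, against 40.2, 13.0, 45.6 and 18.1 CPM in young HSCs. Old 2 was the only old library with a substantial level, just above young 2. The log2 fold change was -2.63 ± 1.45 (adjusted p = 0.678), and -6.19 without old 2 (adjusted p = 0.207).

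Scap, the sterol-sensing escort of both precursors, stood at 3.32, 0.0310 and 0.461 CPM in old HSCs, against 14.1, 6.21, 43.5 and 12.6 CPM in young HSCs. The groups did not overlap. The old values came from 88, 1 and 12 counts, so old 2 was below the floor of 3 counts and the size of the fold is uncertain. The mean was 15.04-fold lower in old HSCs, with a log2 fold change of -3.91 ± 1.68. The adjusted p was 0.522 by edgeR and 0.0808 by DESeq2. The size depended on old 1: without it the log2 fold change was -6.27 (adjusted p = 0.533). Srebf1, Srebf2 and Scap together, a sum formed after their values were seen, came to 39.8, 50.7 and 30.7 CPM in old HSCs and to 137.0, 52.2, 185 and 124.0 CPM in young HSCs, where young 2 was close to old 2.

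The INSIG genes did not share this pattern of values. Insig1, itself a target of SREBP, stood at 10.01, 20.3 and 25.2 CPM in old HSCs, against 42.7, 12.9, 24.5 and 5.61 CPM in young HSCs, and the old libraries lay within the range of the young (fitted log2 fold change -0.21 ± 0.90, adjusted p = 0.986). Insig2, the form that SREBP does not drive, had a higher mean in old HSCs. It stood at 50.8, 127 and 179.8 CPM in old HSCs, against 79.1, 38.2, 66.6 and 101 CPM in young HSCs (fitted log2 fold change 0.74 ± 0.47, adjusted p = 0.768).

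Of the LXR genes, Nr1h2 encodes the widely expressed LXR beta. It stood at 73.6, 105 and 50.6 CPM in old HSCs, against 97.2, 104, 145 and 121 CPM in young HSCs (fitted log2 fold change -0.61 ± 0.33, adjusted p = 0.656). Nr1h3 encodes LXR alpha, known from macrophages and liver. It had 15.2, 8.20 and 7.91 CPM in old HSCs and was absent from the reads of young 1, young 2 and young 3, while young 4 held 8.64 CPM, which is within the old range. It entered the test through its old libraries, and its log2 fold change of 2.27 ± 2.45 did not pass (adjusted p = 0.927). Mylip, the LXR-induced ligase that sends lipoprotein receptors to degradation, ranged from 6.95 to 10.9 CPM in old HSCs and from 0 to 20.8 CPM in young HSCs.

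To see which promoters carry the letters SREBP and its partners are known to bind, the 250 bases before each annotated start were searched on both strands in the RefSeq promoter table (GRCm38.p6), which held 30 of the 36 genes. It held no promoter for Fdft1, Fdps, Sqle, Scarb1, Lpl and Stard4, so these genes were not searched. The core of the sterol regulatory element was searched as CACNCCAC, the E-box as CACGTG, the CCAAT box bound by NF-Y as CCAAT, and the GC box bound by Sp1 as GGGCGG. No motif contains another, but separate matches may overlap. The sterol core was found in 3 of the 30 genes (Hmgcs1, Acat2 and Insig1), against 6.53% of the tested genes with a promoter. The E-box was found in 5 (Dhcr7, Hsd17b7, Insig1, Sc5d and Scap), against 10.1%, the CCAAT box in 23, against 40.7%, and the GC box in 23, against 64.7%. The 30 genes include Hmgcs1, Lrp1 and Pltp, which were not tested, so the shares of tested genes are not like for like. The counts describe letters in a window and show no binding.

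A stretch with the sterol core is printed for each of the 3 searched genes in which this core was found. Acat2 holds 2 cores, and its stretch shows the one nearer the start. Capitals mark the core, which appears as its reverse complement where it lies on the opposite strand. They lie at chr13:119690191-119690250 (Hmgcs1, plus strand), chr17:12960746-12960805 (Acat2, minus strand) and chr5:28071352-28071411 (Insig1, plus strand), in GRCm38.p6. The 100 bases before the start of Srebf2 (chr15:82147169-82147268, plus strand) follow, with the GC box in capitals on either strand.
Hmgcs1: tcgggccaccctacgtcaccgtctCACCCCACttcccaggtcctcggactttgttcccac
Acat2: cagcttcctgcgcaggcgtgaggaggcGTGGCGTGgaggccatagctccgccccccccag
Insig1: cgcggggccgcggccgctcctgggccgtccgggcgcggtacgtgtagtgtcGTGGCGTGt
Srebf2: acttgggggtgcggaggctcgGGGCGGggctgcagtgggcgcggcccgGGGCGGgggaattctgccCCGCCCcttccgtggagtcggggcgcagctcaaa

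The genes with a sterol core did not share a difference between the groups. Acat2, the cytosolic thiolase that makes acetoacetyl-CoA, had the smallest ratio of highest to lowest library among the members (1.43), at 84.0, 62.6 and 61.7 CPM in old HSCs and 60.2, 62.1, 86.0 and 77.4 CPM in young HSCs. Its log2 fold change of -0.04 had a 95% interval of -0.78 to 0.69. Hmgcs1, the HMG-CoA synthase of the cytosol, had no count in any of the 7 libraries, although Acat2 before it and Mvk after it in the pathway were read. A part of its exons (12.1% of their length in GENCODE M21) overlaps an antisense gene, and how the authors' counting handled this was not tested. Insig1 is described above.

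The summed levels of the sterol synthesis enzymes overlapped between the groups. The 18 genes summed to 1051, 984 and 1037 CPM in old HSCs and to 1134, 974, 1115 and 909 CPM in young HSCs, so all old libraries lay within the range of the young. Of the 17 tested, 0 passed over all genes by edgeR, 1 (Fdft1) was higher and 0 were lower at an unadjusted p under 0.05 (4.62% and 4.49% of all tested genes), and 1 was called higher by DESeq2 (1.90%). The log2 fold change was positive for 7 and negative for 10, with a median of -0.18.

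**Figure D3:**
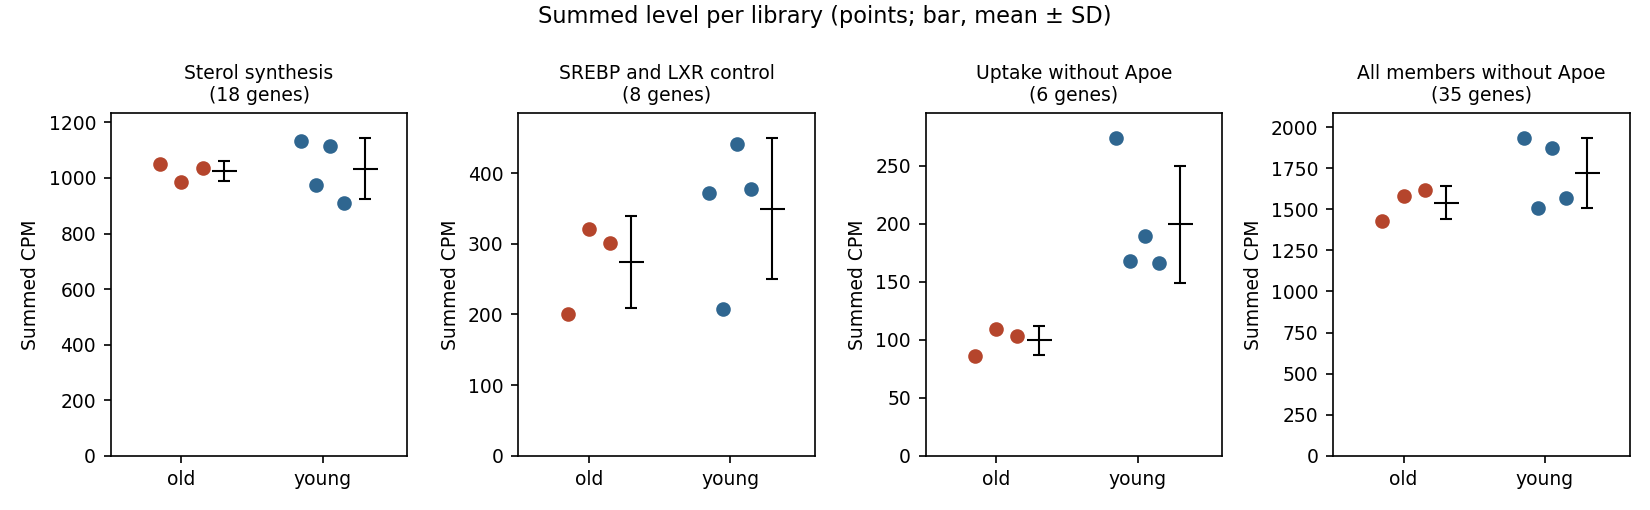
Summed level (CPM, linear axis) in each library of old (left, n = 3) and young (right, n = 4) HSCs, with the mean and SD as a bar, for sterol synthesis, SREBP and LXR control, uptake without Apoe, and all members without Apoe. The sums of sterol synthesis overlap between the groups. Those of uptake without Apoe, a split chosen after the values were seen, do not (85.7 to 109 CPM in old, 166 to 274 CPM in young).

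Fdft1, squalene synthase, which commits farnesyl units to sterols, was the synthesis enzyme with the smallest p, and it missed the threshold by edgeR. It stood at 117, 90.0 and 187 CPM in old HSCs, against 50.8, 62.0, 53.6 and 39.7 CPM in young HSCs. The groups did not overlap. The mean was 2.55-fold higher in old HSCs (131 ± 50.04 against 51.5 ± 9.19 CPM in young), a log2 fold change of 1.35 ± 0.34 (SE) and an adjusted p of 0.186 by edgeR, 0.0265 by DESeq2 and 0.170 by limma-voom. Without each library in turn it was 1.01 to 1.54.

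Fdft1 shares 18.3% of its exon length with Ctsb, the gene of the lysosomal protease cathepsin B on the opposite strand, in GENCODE M21. Because the library kit does not mark strand, reads from the shared stretch cannot be told apart. Ctsb stood at 913, 1168 and 1119 CPM in old HSCs and at 666, 830.2, 712 and 774 CPM in young HSCs, also without overlap (fitted log2 fold change 0.52 ± 0.19, adjusted p = 0.369 by edgeR). Its part in the Fdft1 values was not tested.

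Of the early mevalonate enzymes, Pmvk (phosphomevalonate kinase) was read evenly, at 62.5 to 82.6 CPM in old HSCs and 55.0 to 108 CPM in young HSCs (fitted log2 fold change -0.28, 95% interval -1.03 to 0.46). Mevalonate kinase, Mvk, was uneven in both groups, with 0, 16.3 and 31.0 CPM in old HSCs against 0.307, 49.6, 24.1 and 0.487 CPM in young HSCs. Mvd, which decarboxylates mevalonate diphosphate, had 2.08, 32.97 and 19.2 CPM in old HSCs against 46.7, 0, 12.8 and 0 CPM in young HSCs. Neither Mvk nor Mvd can be ranked between the groups at this spread, and their 95% intervals run from -4.73 to 4.26 and from -4.48 to 5.04 on the log2 scale.

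Idi1, the isopentenyl diphosphate isomerase, ranged from 8.95 to 17.98 CPM in old HSCs and from 11.7 to 22.8 CPM in young HSCs. Fdps makes farnesyl diphosphate, the branch point to sterols and prenylated proteins. It stood at 138, 138 and 105 CPM in old HSCs, against 203, 61.5, 107 and 99.1 CPM in young HSCs. Its means were close (fitted log2 fold change 0.11 ± 0.39), and young 1 and young 2 were the highest and the lowest of all libraries. In GENCODE M21, Fdps shares 26.7% of its exon length with the protein-coding gene Gm43738 on the same strand. The part of this overlap in the Fdps values was not tested. Ggps1, which makes the geranylgeranyl unit for protein prenylation, ranged from 49.3 to 134 CPM in old HSCs and from 62.6 to 88.7 CPM in young HSCs (fitted log2 fold change 0.38 ± 0.38, adjusted p = 0.915).

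After squalene, the pathway builds and trims the sterol ring. Sqle, squalene monooxygenase, a rate-limiting step, stood at 67.9, 152 and 70.4 CPM in old HSCs, against 93.9, 98.8, 165 and 190.3 CPM in young HSCs. Its mean was 1.42-fold lower in old HSCs (fitted log2 fold change -0.50 ± 0.40, adjusted p = 0.869), and old 2 lay above 2 young libraries. Lss, which closes the ring to lanosterol, had 0, 13.1 and 19.9 CPM in old HSCs and 1.10, 0, 13.3 and 12.05 CPM in young HSCs.

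Cyp51, the lanosterol demethylase, ranged from 52.1 to 70.3 CPM in old HSCs and from 49.3 to 109 CPM in young HSCs (fitted log2 fold change -0.37 ± 0.37). Ebp, the sterol isomerase, ranged from 63.0 to 86.3 CPM in old HSCs and from 74.9 to 144 CPM in young HSCs (fitted log2 fold change -0.48 ± 0.34). The 95% intervals of -1.21 to 0.47 for Cyp51 and -1.23 to 0.28 for Ebp leave room for a difference either way.

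Of the other late enzymes, Nsdhl, which removes the C4 carbons, ranged from 53.7 to 104 CPM in old HSCs and from 25.5 to 155 CPM in young HSCs. Dhcr7, the last reductase of the pathway to cholesterol in its Kandutsch-Russell branch, ranged from 32.1 to 78.5 CPM in old HSCs and from 34.7 to 72.4 CPM in young HSCs. Sc5d, the lathosterol desaturase, ranged from 48.4 to 139 CPM in old HSCs and from 81.4 to 109 CPM in young HSCs. For all 3 the log2 fold change lay between -0.30 and 0.07, and the spread between libraries of a group was larger than the difference.

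Hsd17b7, the sterol ketoreductase, and Tm7sf2, a sterol C14 reductase, were read in some libraries and nearly missing in others. Hsd17b7 had 0.0378, 21.9 and 2.997 CPM in old HSCs against 21.7, 19.6, 15.6 and 8.88 CPM in young HSCs. Tm7sf2 had 16.6, 11.9 and 1.076 CPM in old HSCs against 0, 8.81, 0 and 8.78 CPM in young HSCs. Of all members, 8 of the 33 tested (24.2%) had no count in at least 1 library, beside 27.0% of all tested genes.

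**Figure D4:**
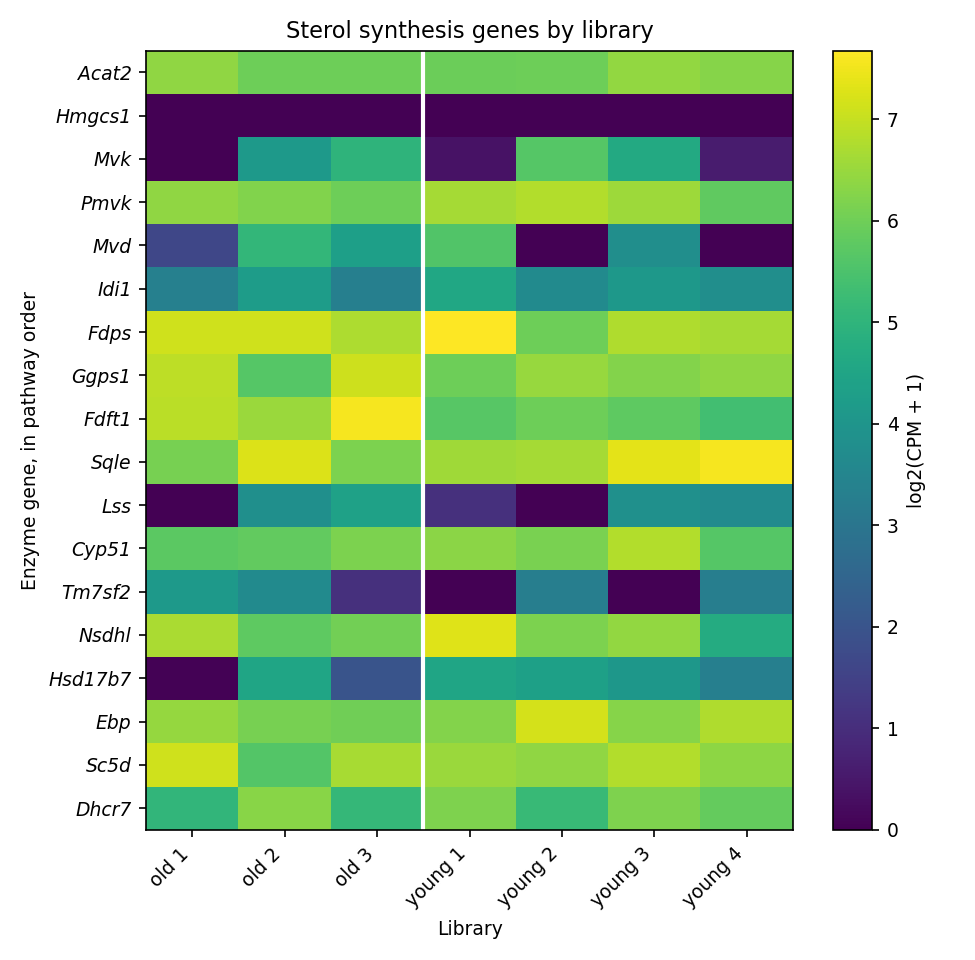
Level of the 18 sterol synthesis genes (rows, in pathway order) in each library (columns, old left of the white line, young right), as log2(CPM + 1). Hmgcs1 is at 0 throughout, Mvk, Mvd, Lss, Tm7sf2 and Hsd17b7 are near 0 in some libraries, and Fdft1 is brighter in the 3 old libraries than in the 4 young ones.

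None of the 3 genes that store and carry sterol inside the cell passed the test, and their groups overlapped. Soat1, which esterifies cholesterol for storage in droplets, stood at 23.3, 94.3 and 69.3 CPM in old HSCs, against 53.9, 73.7, 55.3 and 41.8 CPM in young HSCs (fitted log2 fold change 0.15 ± 0.50). Stard4, a soluble sterol carrier that SREBP induces, ranged from 35.4 to 65.8 CPM in old HSCs and from 20.3 to 70.7 CPM in young HSCs (0.13 ± 0.53). Osbp, which exchanges sterol and phosphoinositide between endoplasmic reticulum and Golgi, stood at 18.8, 5.66 and 69.0 CPM in old HSCs, against 27.6, 30.6, 48.1 and 37.8 CPM in young HSCs (-0.21 ± 0.80). The old libraries covered a wider range than the young for Soat1 and Osbp. The 95% intervals of the log2 fold change, -0.97 to 1.27 for Soat1, -1.05 to 1.31 for Stard4 and -2.01 to 1.59 for Osbp, include differences of more than 1 log2 unit.

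Further genes of cholesterol and lipid handling were read from 8 other lists, and in none of them did a gene pass an adjusted p of 0.05 by edgeR. The counts below stand beside 4.62% of all tested genes higher and 4.49% lower at an unadjusted p under 0.05, 1.90% called higher and 1.91% lower by DESeq2, and 7.55% with old libraries above all young ones and 5.18% below. Among 20 tested genes of late endosomal and membrane contact transport, 3 were higher and 0 lower at an unadjusted p under 0.05, and DESeq2 called 2 higher. These were Osbpl9, a relative of Osbp, with 284, 278 and 367 CPM in old HSCs against 139, 114, 204 and 140.1 CPM in young HSCs (fitted log2 fold change 1.05 ± 0.25, adjusted p = 0.164 by edgeR and 0.0124 by DESeq2), and Npc2, the soluble cholesterol carrier of lysosomes, with 202 to 253 CPM in old HSCs against 116 to 146 CPM in young HSCs (adjusted p = 0.199 by edgeR and 0.0306 by DESeq2). The other was Vapb, a tether of the endoplasmic reticulum, with 46.0, 36.2 and 46.1 CPM in old HSCs against 7.10, 16.6, 15.1 and 16.2 CPM in young HSCs (fitted log2 fold change 1.64 ± 0.64, edgeR adjusted p = 0.433). For these 3 genes the old libraries all lay above the young ones. For Gramd1a of the same list they all lay below, at 6.27, 11.8 and 0 CPM in old HSCs against 27.7, 14.7, 54.4 and 29.6 CPM in young HSCs. Its fitted log2 fold change was -2.39 ± 1.54 (edgeR adjusted p = 0.777).

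Sterol synthesis outside the 18 enzymes gave 1 of 7 tested genes higher and 0 lower at an unadjusted p under 0.05. That gene was Msmo1, the C4-methyl sterol oxidase, with 286, 186 and 223 CPM in old HSCs against 166, 153, 124 and 144 CPM in young HSCs (fitted log2 fold change 0.66 ± 0.23, adjusted p = 0.360). Lbr, a sterol C14 reductase that also anchors lamin B, averaged 239 ± 69.2 CPM in old HSCs and 378 ± 123 CPM in young HSCs (edgeR adjusted p = 0.621).

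Of 8 tested genes of SREBP processing, 0 were higher and 1 lower at an unadjusted p under 0.05. This was Mbtps1, the site-1 protease that cleaves SREBP, with 15.4, 19.1 and 8.38 CPM in old HSCs against 16.8, 49.7, 52.1 and 58.1 CPM in young HSCs (fitted log2 fold change -1.63 ± 0.68, adjusted p = 0.487). Ufd1l, an adaptor for extracting ubiquitinated proteins from the endoplasmic reticulum, averaged 212 ± 16.4 CPM in old HSCs and 152 ± 33.5 CPM in young HSCs (edgeR adjusted p = 0.619).

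Fatty acid synthesis genes driven by SREBP gave 0 of 11 at an unadjusted p under 0.05, and 8 of the 11 had a negative log2 fold change (median -0.46). Fasn, the fatty acid synthase, stood at 0.567, 12.4 and 3.34 CPM in old HSCs, against 37.0, 13.7, 38.8 and 17.9 CPM in young HSCs, without overlap (fitted log2 fold change -2.31 ± 1.16, adjusted p = 0.629). Acly, which supplies cytosolic acetyl-CoA, averaged 44.6 ± 27.7 CPM in old HSCs and 107 ± 50.8 CPM in young HSCs (edgeR adjusted p = 0.633). For both genes, and for Srebf1, old 2 was the highest old library and young 2 the lowest young one.

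Among 7 tested partners and targets of LXR, 0 were higher and 2 lower at an unadjusted p under 0.05. Abcg1, the exporter that passes cholesterol to high-density lipoprotein, stood at 142, 128 and 181 CPM in old HSCs, against 649.8, 231, 270.0 and 186 CPM in young HSCs (fitted log2 fold change -1.15 ± 0.43, adjusted p = 0.392). The groups did not overlap, by a margin of a few CPM between old 3 and young 4. Ncor1, a corepressor of nuclear receptors, averaged 169.8 ± 66.1 CPM in old HSCs and 304 ± 115 CPM in young HSCs (edgeR adjusted p = 0.518).

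In the enzymes of sterol esters and oxysterols, 0 of 6 tested genes were higher and 1 lower at an unadjusted p under 0.05. Cyp27a1, the sterol 27-hydroxylase, was at 0 in all old libraries, against 19.1, 17.1, 0 and 9.61 CPM in the young. Young 3 also had no count, and the floor of 3 counts covers counting error only, so no fold is given. Cyp27a1 is the 1 gene counted as lower, and it entered the test only through its young libraries. That count and its adjusted p (0.295 by edgeR and 0.00130 by DESeq2) are therefore given as a description. Hsd3b7, an enzyme of bile acid synthesis from oxysterols, averaged 352 ± 63.6 CPM in old HSCs and 239.6 ± 90.5 CPM in young HSCs (edgeR adjusted p = 0.718).

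The remaining lists gave no gene at an unadjusted p under 0.05 in either direction. In isoprenoid use (12 tested, median -0.20), the lowest p belonged to Rce1, the CAAX protease, with 129.5 ± 13.0 CPM in old HSCs and 177 ± 56.7 CPM in young HSCs (edgeR adjusted p = 0.764), and to Pdss1, of ubiquinone synthesis, with 27.9 ± 2.56 CPM in old HSCs and 43.1 ± 19.7 CPM in young HSCs (edgeR adjusted p = 0.893). For Rabggtb, also of isoprenoid use, all old libraries lay below all young ones, at 58.6 to 72.0 CPM against 74.6 to 99.2 CPM (edgeR adjusted p = 0.907). Of 24 other receptors, adaptors and apolipoproteins, 10 were tested and 8 had no count in any library. Lrp10, a receptor of the same family, averaged 21.3 ± 8.57 CPM in old HSCs and 52.4 ± 56.0 CPM in young HSCs (edgeR adjusted p = 0.884), and Apoa1, the main protein of high-density lipoprotein, averaged under 1 CPM in both groups.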

How the data were processed

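Per the labels' protocols, cDNA was made from sorted cells with Smart-seq+ and libraries with Nextera XT, a kit without strand information. Trimmomatic, FastQC, STAR, featureCounts and the mm9 build are named, per the submitters' processing notes, with no settings. The authors deposited 1 table of whole-number counts by gene symbol, covering 3 old and 4 young libraries. No molecular identifiers are stated, so counts include amplification copies.

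Counts were filtered (filterByExpr, minimum count 10, minimum total 15; 11506 genes kept), scaled with TMM factors and compared, old over young, by edgeR's quasi-likelihood F test with group as the only term, 2-sided, Benjamini-Hochberg adjustment over all tested genes and a threshold of 0.05 (R 4.3.3, edgeR 4.0.16, limma 3.58.1, DESeq2 1.42.0). SEs were derived from the fold change and F (the size of the log2 value over the root of F). The procedure was tested on simulated data. The members and lists were chosen with earlier results of these data known. Named beyond the members are the 2 genes with the smallest p in each pathway list. Vapb, Ctsb, Gramd1a and Rabggtb were added after their values were seen. Of the members, 7 share exons with another protein-coding gene in GENCODE M21 (GRCm38), and single values of these are uncertain. They are Fdps, Ggps1, Fdft1, Cyp51, Tm7sf2, Srebf1 and Pltp. No library pair agreed within sampling noise. Alternatives were DESeq2, limma-voom, 3 scalings, 2 filters, a threshold of 0.1, a replicate block and fits with libraries left out; leaving out young 1 and young 2 together was added after the data were examined.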

Additional observations from a re-analysis of the deposited data

Results flagged for a closer look

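The check covered 50 genes with a level in young HSCs, from the members and the 2 with the smallest p in each pathway list. In 2 of them a young library was flagged as apart from the other 3. Chance flags about 1 in 20 groups of normally spread values, a rate that does not apply to these 2. Each had counts in a single young library, where any count at all is flagged. Nr1h3, the gene of LXR alpha, had 8.64 CPM in young 4 and no count in the other young libraries. Lrp1 had 0.0348 CPM in young 4, which is 1 count, and no count elsewhere.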

How the results depend on the processing

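No member passed in edgeR under another scaling, without a filter, with the replicate block, or without any 1 library (0 calls each). DESeq2 called 2 members, and limma-voom and the fit to genes of at least 50 CPM called 1 each. A threshold of 0.1 on the main fit, which is not a separate fit, also called 1. Over all genes, 29 calls became 431 (DESeq2), 50 (limma-voom), 130 (at least 50 CPM), 49 (threshold 0.1), 16 (library size alone), 7 (without young 1 and young 2) and 2 to 18 (without 1 library in turn). The median of all genes, -0.03, moved to -0.12 with library size alone, 0.08 with limma-voom and 0.11 under the replicate block. The median log2 fold change of the members stayed between -0.39 and -0.10 in all alternatives.

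Replicate numbers did not pair the libraries (correlations of deviations of 0.025, -0.074 and -0.014). With the replicate block, on old 1 to 3 and young 1 to 3, 0 genes were called (711 at an unadjusted p under 0.05), against 11 for the same libraries without the block. Under the block the sign changed for Acat2 (0.0040), Mylip (0.58), Sc5d (-0.10) and Soat1 (-0.17).

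Of the 33 tested members, 21 kept their sign in every alternative, among them Apoe, Fdft1, Srebf1, Srebf2, Scap and Scarb1. The sign changed with limma-voom for Insig1 (0.17), Mylip (1.27), Nsdhl (0.064) and Sc5d (-0.10), and for Sc5d also with library size alone (-0.042) and at 50 CPM (-0.0093). Without young 1 and young 2 it changed for Insig1 (0.30), Lss (-0.21), Mvk (0.36) and Nsdhl (0.41). Leaving out each library gave ranges across 0 for Acat2 (-0.20 to 0.061), Fdps (-0.10 to 0.51), Insig1 (-0.53 to 0.37), Lss (-0.017 to 1.32), Mvd (-0.50 to 2.08), Mvk (-1.19 to 0.93), Nsdhl (-0.50 to 0.29), Osbp (-1.56 to 0.26), Sc5d (-0.29 to 0.37), Soat1 (-0.30 to 0.54) and Stard4 (-0.13 to 0.42). The causes were not tested. Depth limits values near the floor of 3 counts. Mvk, which had 0 to 1086 counts, varied between libraries far beyond counting error.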
